A study of Homo sapiens with 6 samples.

Results

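The genes described here encode the chaperones of the cytosol, the nucleus and the mitochondria, with their co-chaperones and the heat shock factors that control them. They were chosen by name from a list of 46 symbols, of which 45 were among the 20683 genes of the count files; HSPB8, a small heat shock protein gene, was not analysed here. BAG5 was below the count filter, which left 44 genes for testing. HT-1080 is a cell line established from a human fibrosarcoma, a tumour of connective tissue. RNA was taken after the cells had spent 24 h with either the code-named IRAK4 inhibitor SLV-8472-01, whose concentration the labels give as 5 mM, or 0.1% DMSO, its solvent control. There were 3 inhibitor libraries and 3 DMSO libraries, described by the series as biological replicates, and all cells were of this 1 line and grown in the same way on dishes, with no genetic change named. The unit of the 5 mM label could not be checked here.

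Chaperones bind unfolded or partly folded proteins and keep them from aggregating. Proteins of the HSP70 family do this in cycles of ATP hydrolysis that J-domain proteins (HSP40) start and nucleotide exchange factors such as the HSP110 and BAG proteins end, and clients can be passed on by STIP1 to HSP90 or enter the ring-shaped chaperonins. HSF1 is the transcription factor that induces many of these genes after heat or proteotoxic stress, through promoter sequences called heat shock elements, while close relatives such as HSPA8 and HSP90AB1 are made constitutively. Tumour cells often hold these proteins at high levels.

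Library totals ranged from 9162281 to 13184553 counts, and 3.87% of the 11216 genes tested were called in either direction at an adjusted p under 0.05 (edgeR's quasi-likelihood test, Benjamini-Hochberg adjustment over all tested genes). Values below are counts relative to library size, scaled between libraries with TMM factors (CPM). In this amplicon panel the count of a gene also depends on how well its PCR product is amplified, so levels are compared between libraries and not between genes. Of 6 mesenchymal markers, 5 reached 10 counts in a library, among them VIM, FN1 and SPARC, while the epithelial markers CDH1 and KRT5, the leukocyte markers PTPRC and CD3E and the endothelial marker VWF had no count in any library, and the mesenchymal marker THY1 had 1 count in all. The epithelial marker CLDN4, with 7 to 20 counts per library, and the endothelial marker PECAM1, with 9 to 26, also reached 10 counts. For the marker sums alone, CPM are relative to library totals without TMM factors. The 5 epithelial markers summed to 1.34 to 2.27 CPM in the inhibitor libraries and 0.873 to 1.29 CPM in the DMSO libraries. The 3 endothelial markers summed to 0.816 to 2.27 and 0.759 to 1.42 CPM. Both sums were near 0, and the part of these markers in the results was not tested. The DMSO 3 library stood apart. Its median absolute log2 difference was 0.317 from DMSO 1 and 0.248 from DMSO 2, against 0.122 to 0.130 between inhibitor libraries and 0.156 between DMSO 1 and DMSO 2. Over the 44 tested chaperone genes these differences were 0.398 and 0.236 for DMSO 3, 0.0907 to 0.125 between inhibitor libraries and 0.156 between DMSO 1 and DMSO 2. Results are therefore also given without DMSO 3, in a fit that called 21.9% of the 11386 genes it tested.

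Among the 44 chaperone genes, 4 rose with the inhibitor and none fell. They were HSPA1A and HSPA1B, the stress-inducible HSP70 genes, HSPA8, the constitutive HSP70 gene, and DNAJA1, an HSP40 gene whose protein works with HSP70. These make up 9.09% of the tested chaperone genes, where 1.95% of all tested genes were called higher and 1.92% lower. HSPA1A and HSPA1B are nearly identical copies whose reads cannot be reliably parted. The 4 calls may therefore not be 4 separate results, which would make the share smaller. An unadjusted p under 0.05 was found for 9 of the 44 (20.5%), close to the 19.5% of all tested genes. By DESeq2 and by limma-voom without library quality weights 4 were also called higher and none lower. Of all 11216 genes DESeq2 called 288 higher and 303 lower. Limma-voom without those weights called 228 higher and 216 lower. With library quality weights limma-voom called 14 higher and 2 lower. In that fit 1387 of all 11216 genes were called higher and 1219 lower. The median log2 fold change was 0.15 over the 44 genes and 0.00 over all tested genes (-0.00438). Among the chaperone genes 31 values were positive and 13 negative, against 5543 and 5673 among all tested genes. The 44 genes share the same libraries, so their signs are not independent. The inhibitor and DMSO values did not overlap for 11 of the 44 genes (25%), 10 higher and 1 lower, and for 25.5% of all tested genes (13.7% higher and 11.8% lower).

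**Figure D1:**
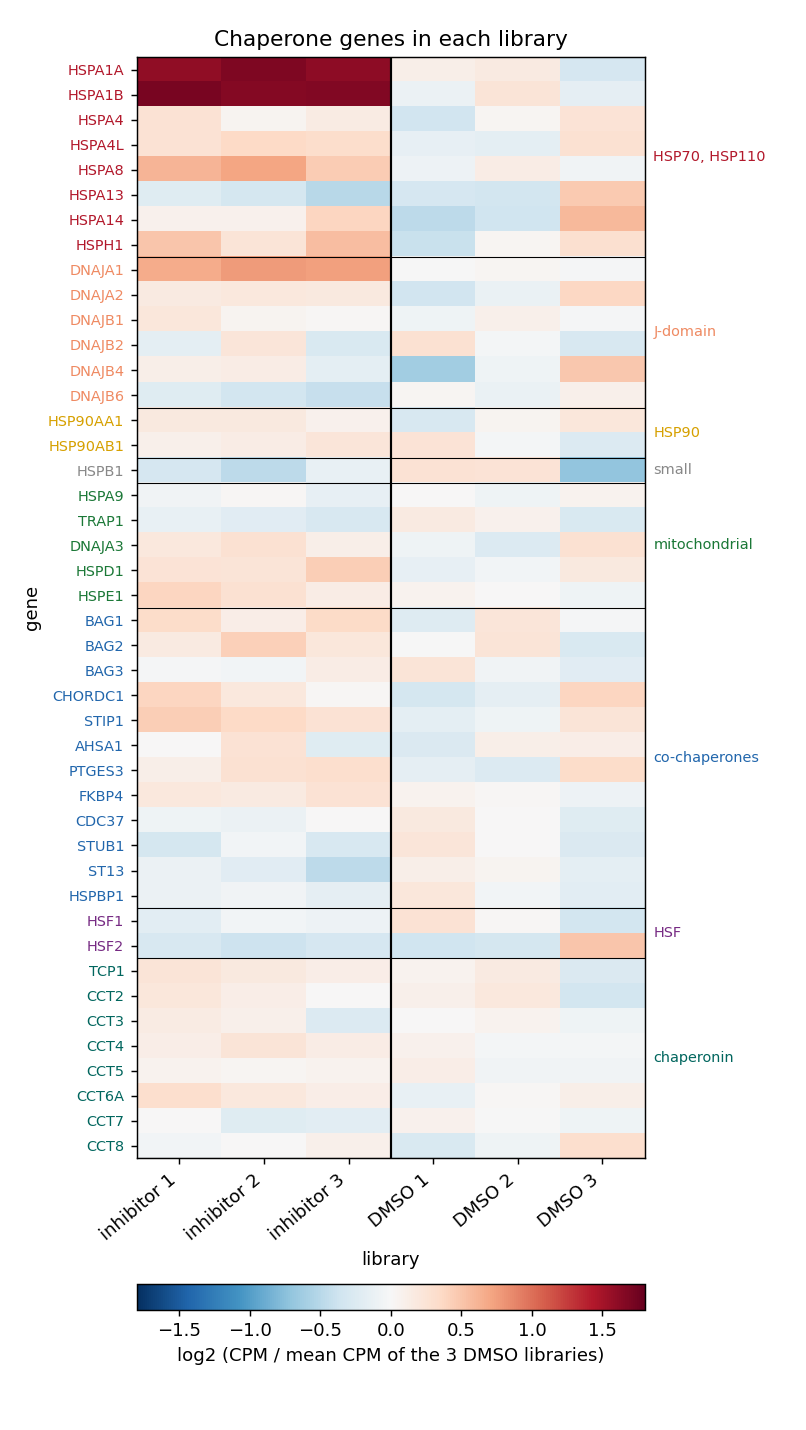
Each row is a tested chaperone gene and each column a library, inhibitor libraries on the left and DMSO libraries on the right; colour is the log2 ratio of the gene's CPM to its mean in the 3 DMSO libraries. HSPA1A and HSPA1B are dark red in all 3 inhibitor libraries, HSPA8 and DNAJA1 lighter red, and the DMSO 3 column differs in colour from DMSO 1 and DMSO 2 for many genes, such as HSPA14 and HSF2.

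HSPA1A had 95.9, 101.9 and 97.0 CPM in the inhibitor libraries, against 34.3, 35.5 and 25.8 CPM in the DMSO libraries. All 3 inhibitor values lay far above the highest DMSO value, and the fold change was 3.07 (log2 fold change 1.62, SE 0.141, adjusted p = 2.31e-05). HSPA1B, a nearly identical copy next to it on chromosome 6, had 14.0, 13.5 and 13.5 CPM in the inhibitor libraries and 3.99, 5.02 and 3.83 CPM in the DMSO libraries. Its fold change of 3.17 (log2 fold change 1.66, SE 0.175, adjusted p = 0.000105) was close to that of HSPA1A, but reads of such copies cannot be reliably parted. With the counts of both added together there were 1346, 1294 and 1063 counts in the inhibitor libraries and 490, 532 and 263 in the DMSO libraries, and the log2 fold change was 1.63 (SE 0.139, adjusted p = 2.15e-05). DMSO 3 had the lowest value of all libraries for both copies. Without it the log2 fold changes were 1.48 for HSPA1A and 1.58 for HSPA1B.

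HSPA8 encodes HSC70, the HSP70 that folds new proteins in unstressed cells and uncoats clathrin vesicles. It had 2072, 2225 and 1862 CPM in the inhibitor libraries, against 1278, 1494 and 1298 CPM in the DMSO libraries. The groups did not overlap, and HSPA8 rose 1.51-fold (log2 fold change 0.60, SE 0.114, adjusted p = 0.00938). The call was lost without inhibitor 1 (log2 fold change 0.59, adjusted p = 0.0737) and without inhibitor 2 (0.54, adjusted p = 0.106). DNAJA1 had 504, 540 and 526 CPM in the inhibitor libraries and 314, 324 and 312 CPM in the DMSO libraries, so that the gap between the groups was several times the spread within either. It rose 1.65-fold (log2 fold change 0.73, SE 0.107, adjusted p = 0.00173), and by 0.70 on the log2 scale without DMSO 3.

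The HSP70s were compared with each other through the ratio of their counts within each library, in which library scaling cancels. A library's trend with transcript GC content, described below, need not cancel. HSPA1A and HSPA1B are at 59.2% and 58.7% GC and HSPA8 at 46.8%. No ratio was recomputed with that trend removed. The ratio of HSPA1A plus HSPA1B to HSPA8 was 0.0531, 0.0518 and 0.0594 in the inhibitor libraries, against 0.0300, 0.0271 and 0.0228 in the DMSO libraries. All inhibitor ratios were above all DMSO ratios, with a fold difference of 2.07 (exact permutation test over libraries, two-sided p = 0.10, the smallest that 3 against 3 libraries can give; 0.30 adjusted over the 3 ratios tested). The inducible copies thus differed between the groups by more than HSPA8 did in these libraries, in a design that cannot take this test below 0.10.

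**Figure D2:**
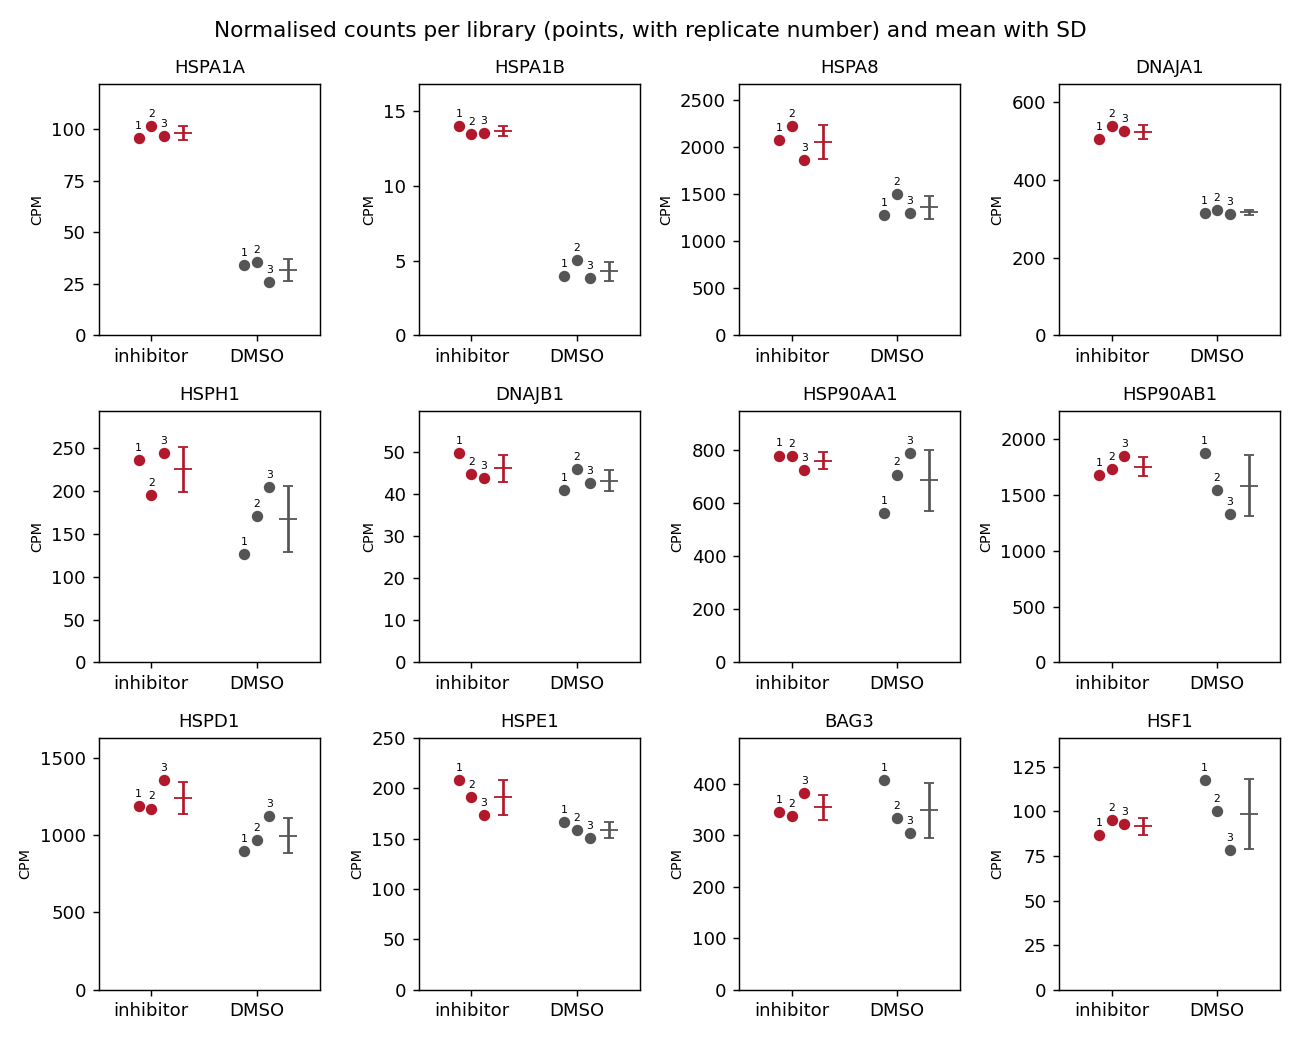
CPM of 12 chaperone genes in each library (points, with replicate numbers) and group mean with SD (n = 3), inhibitor on the left and DMSO on the right of each panel, with axes from 0. The groups are separate for HSPA1A, HSPA1B, HSPA8 and DNAJA1, while HSPH1, DNAJB1, HSP90AA1, HSP90AB1, BAG3 and HSF1 overlap; HSPD1 and HSPE1 do not overlap but did not pass the test.

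The promoters of these genes are shown because heat shock elements, the binding sites of HSF1, are the known shared feature of heat-inducible genes. A heat shock element is a row of inverted units of 5 bases, each with GAA or its complement TTC. The 300-base windows of RefSeq promoters (250 bases before to 50 after an annotated transcript start, GRCh38.p14, a later build than the hg19 of the deposited counts) were searched for 2 units, GAANNTTC or TTCNNGAA, and for 3 units, in which such a match is followed by NNGAA or NNTTC in turn, so that each 3-unit match contains 2-unit matches. These letters cover both strands. The 4 genes that rose are followed by 3 genes of the list that were not called and also carry matches: DNAJB1, a classic heat-induced HSP40 gene, HSP90AA1, the inducible cytosolic HSP90 gene, and HSPD1, the mitochondrial chaperonin gene. The 4 genes that rose have 1 window each. DNAJB1, HSP90AA1 and HSPD1 have more than 1 annotated start. For these genes start 2, which holds matches, was picked for printing, and start 1 held none. Each line gives the 250 bases before a start on the gene's own strand, and for DNAJA1 20 further bases. Capitals mark the matches.
HSPA1A: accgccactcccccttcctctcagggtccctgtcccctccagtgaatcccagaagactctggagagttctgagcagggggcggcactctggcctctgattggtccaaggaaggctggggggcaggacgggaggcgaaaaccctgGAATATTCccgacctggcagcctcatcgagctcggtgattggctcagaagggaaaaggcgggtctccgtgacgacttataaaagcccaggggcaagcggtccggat
HSPA1B: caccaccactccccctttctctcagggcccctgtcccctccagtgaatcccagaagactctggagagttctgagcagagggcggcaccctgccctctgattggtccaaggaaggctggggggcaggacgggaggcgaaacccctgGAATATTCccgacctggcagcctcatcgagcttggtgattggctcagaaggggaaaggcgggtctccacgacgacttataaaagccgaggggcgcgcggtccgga
HSPA8: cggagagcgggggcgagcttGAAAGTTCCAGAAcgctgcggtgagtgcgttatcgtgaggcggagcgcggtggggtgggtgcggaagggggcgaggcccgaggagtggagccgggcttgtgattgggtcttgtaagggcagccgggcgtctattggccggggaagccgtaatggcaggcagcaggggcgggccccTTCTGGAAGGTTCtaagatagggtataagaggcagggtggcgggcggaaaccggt
DNAJA1: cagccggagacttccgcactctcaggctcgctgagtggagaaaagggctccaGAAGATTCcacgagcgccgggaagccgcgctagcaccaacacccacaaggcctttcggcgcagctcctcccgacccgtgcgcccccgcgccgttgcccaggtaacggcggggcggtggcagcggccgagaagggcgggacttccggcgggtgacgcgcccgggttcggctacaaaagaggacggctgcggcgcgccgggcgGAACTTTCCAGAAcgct
DNAJB1: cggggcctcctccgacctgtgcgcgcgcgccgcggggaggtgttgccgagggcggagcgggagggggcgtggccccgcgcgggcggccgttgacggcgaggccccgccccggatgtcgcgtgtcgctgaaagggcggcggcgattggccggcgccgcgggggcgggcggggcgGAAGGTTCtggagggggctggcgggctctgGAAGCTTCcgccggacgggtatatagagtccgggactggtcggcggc
HSP90AA1: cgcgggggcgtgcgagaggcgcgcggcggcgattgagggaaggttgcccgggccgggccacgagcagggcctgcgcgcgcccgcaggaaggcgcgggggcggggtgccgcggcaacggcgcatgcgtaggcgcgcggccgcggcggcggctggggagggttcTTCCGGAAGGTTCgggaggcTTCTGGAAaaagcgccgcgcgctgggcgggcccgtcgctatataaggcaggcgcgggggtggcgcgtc
HSPD1: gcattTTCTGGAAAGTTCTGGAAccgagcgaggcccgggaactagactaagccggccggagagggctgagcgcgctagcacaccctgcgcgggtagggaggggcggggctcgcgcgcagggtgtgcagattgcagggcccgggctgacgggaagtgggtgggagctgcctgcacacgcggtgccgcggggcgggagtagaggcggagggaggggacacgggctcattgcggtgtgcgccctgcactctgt

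The HSPA1A stretch is at chr6:31815293-31815542 and that of HSPA1B at chr6:31827488-31827737, both on the plus strand, and 235 of 251 aligned positions are identical between them (93.6%). Each holds a single 2-unit match, GAATATTC, about 100 bases before the start. The HSPA8 stretch (chr11:123062137-123062386, minus strand) has 3-unit matches both near the start and farther upstream. DNAJA1 (chr9:33025023-33025292, plus strand) has a 2-unit match upstream and a 3-unit match just behind the start. The other stretches are at chr19:14518398-14518647 for DNAJB1, chr14:102087045-102087294 for HSP90AA1 and chr2:197499841-197500090 for HSPD1, all on the minus strand. HSPD1 and HSPE1 are transcribed away from each other from starts 539 bases apart, and the first base of the overlapping 3-unit matches printed for HSPD1 lies 294 bases from the HSPE1 start.

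Windows were found for 40 of the 46 listed genes, 57 windows in all, since some genes have several starts. HSPA14, FKBP4, STUB1, ST13, HSF1 and CCT6A had none in the table. A 2-unit match was in 21 of the 57 windows (36.8%) and in 13.5% of all 35116 windows, and a 3-unit match in 7 (12.3%) and 0.49%. Counted by gene, 20 of the 40 (50%) had a 2-unit match in at least 1 window, against 16.2% of all 27305 genes with windows. They included all 4 that rose, with 4 windows, and 16 of the other 36, with 53 windows. Genes with more windows have more chances of a match. HSPB8, whose counts were not analysed here, was among the 16. A 3-unit match was found for 2 of the 4, HSPA8 and DNAJA1, and for 5 of the other 36, namely HSPD1, HSP90AB1, DNAJB6, CHORDC1 and HSP90AA1. Of all genes with windows 0.608% had one. The matches thus were present in promoters of genes that were called and of genes that were not, and a match is a description of letters in the window.

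**Figure D3:**
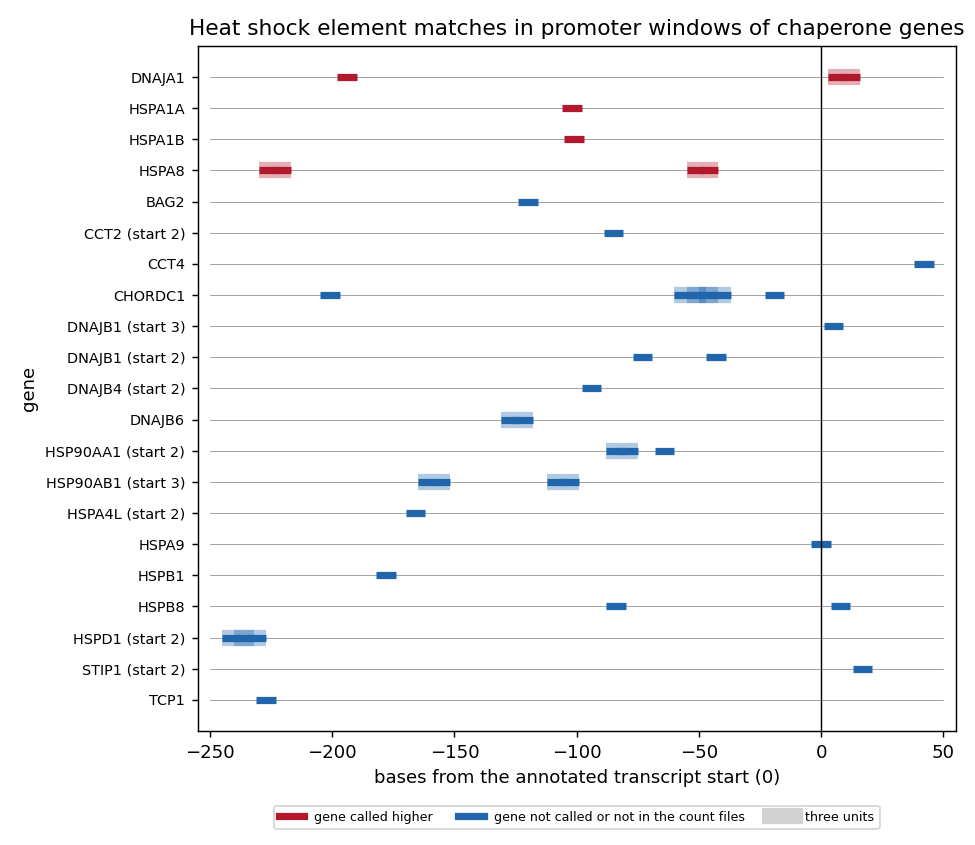
Positions of heat shock element matches in the promoter windows of chaperone genes that hold any, in bases from the annotated transcript start at 0; dark bars are 2-unit matches and the pale boxes around them 3-unit matches, with the genes called higher in red at the top and genes not called or not in the files in blue. The matches of HSPA1A and HSPA1B lie at nearly the same distance from the start, and CHORDC1 holds the longest run.

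The other HSP70 and HSP110 genes did not pass. HSPH1, the HSP110 that exchanges nucleotide on HSP70 and is itself heat-inducible, had 235.9, 195 and 244 CPM in the inhibitor libraries and 127, 170.3 and 204 CPM in the DMSO libraries. These overlapped through DMSO 3 and inhibitor 2, and the log2 fold change was 0.43 (SE 0.161, adjusted p = 0.151). Without DMSO 3 it rose by 0.59 (adjusted p = 0.000459), and it was also called with no filter on low counts (adjusted p = 0.0419). Limma-voom with library quality weights called it too (adjusted p = 0.00288). HSPA4, another HSP110 protein gene, was at 0.16 (95% interval -0.15 to 0.46), and HSPA4L at 0.32 (0.00 to 0.65, the lower bound being -0.00422). Without DMSO 3, HSPA4 was at 0.28 (adjusted p = 0.0508) and HSPA4L rose by 0.45 (adjusted p = 0.0139). HSPA14, a ribosome-associated HSP70, had 51.5, 51.3 and 63.5 CPM in the inhibitor libraries and 35.04, 37.8 and 72.8 CPM in the DMSO libraries. DMSO 3 alone was above all inhibitor values, and the log2 fold change was 0.20 with all libraries (adjusted p = 0.679) and 0.59 without DMSO 3 (adjusted p = 0.000618). HSPA13, an HSP70 relative of the microsomal fraction, had 216, 200.6 and 178 CPM in the inhibitor libraries and 204, 199 and 349 CPM in the DMSO libraries, again with DMSO 3 alone high. Its log2 fold change of -0.34 (adjusted p = 0.339) was -0.04 without DMSO 3 (adjusted p = 0.822).

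Of the 6 J-domain genes, DNAJA1 was the riser. DNAJB1, whose protein activates HSP70 and which heat shock normally induces together with HSPA1A, had 49.9, 44.8 and 44.0 CPM in the inhibitor libraries and 41.0, 46.0 and 42.8 CPM in the DMSO libraries. The groups overlapped, and the log2 fold change was 0.10 with a 95% interval of -0.17 to 0.36 (adjusted p = 0.731), which does not reach the value of HSPA1A. DNAJB6, an aggregation-suppressing J-domain protein gene, had 193, 180.1 and 169 CPM in the inhibitor libraries and 230.2, 207 and 239.6 CPM in the DMSO libraries. These did not overlap, but at a log2 fold change of -0.32 it did not pass (SE 0.118, adjusted p = 0.148), while without DMSO 3 it fell by 0.29 (adjusted p = 0.0371). DNAJA2, the closest relative of DNAJA1 here, was at 0.18 (adjusted p = 0.589) and at 0.39 without DMSO 3 (adjusted p = 0.00612). DNAJB2 had only 33 to 70 counts per library, and its log2 fold change of -0.08 was not told from 0 (95% interval -0.56 to 0.41), nor was that of DNAJB4 at 0.05 (-0.44 to 0.54).

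Neither cytosolic HSP90 gene passed. HSP90AA1, the inducible form, had 780.5, 777 and 725 CPM in the inhibitor libraries and 563, 709 and 791 CPM in the DMSO libraries. HSP90AB1, the constitutive form, had 1676, 1726 and 1843 CPM in the inhibitor libraries and 1874, 1539 and 1329 CPM in the DMSO libraries. For each gene the DMSO values spread on both sides of the inhibitor values, with DMSO 3 highest of the DMSO libraries for HSP90AA1 and lowest for HSP90AB1. Both log2 fold changes were 0.15 (95% intervals -0.13 to 0.42 each; adjusted p = 0.589 for HSP90AA1 and 0.586 for HSP90AB1). The ratio of HSP90AA1 to HSP90AB1 was 0.466, 0.450 and 0.393 in the inhibitor libraries and 0.301, 0.461 and 0.595 in the DMSO libraries, which overlapped (exact permutation test, two-sided p = 1). The small heat shock protein gene HSPB1, which holds unfolded proteins without ATP, had 27 to 33 counts in the inhibitor libraries and 18 to 52 in the DMSO libraries. Its log2 fold change was -0.34 (95% interval -0.93 to 0.25, adjusted p = 0.548). HSPB1 was lowest in DMSO 3, and without that library it was at -0.57 (adjusted p = 0.103).

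**Figure D4:**
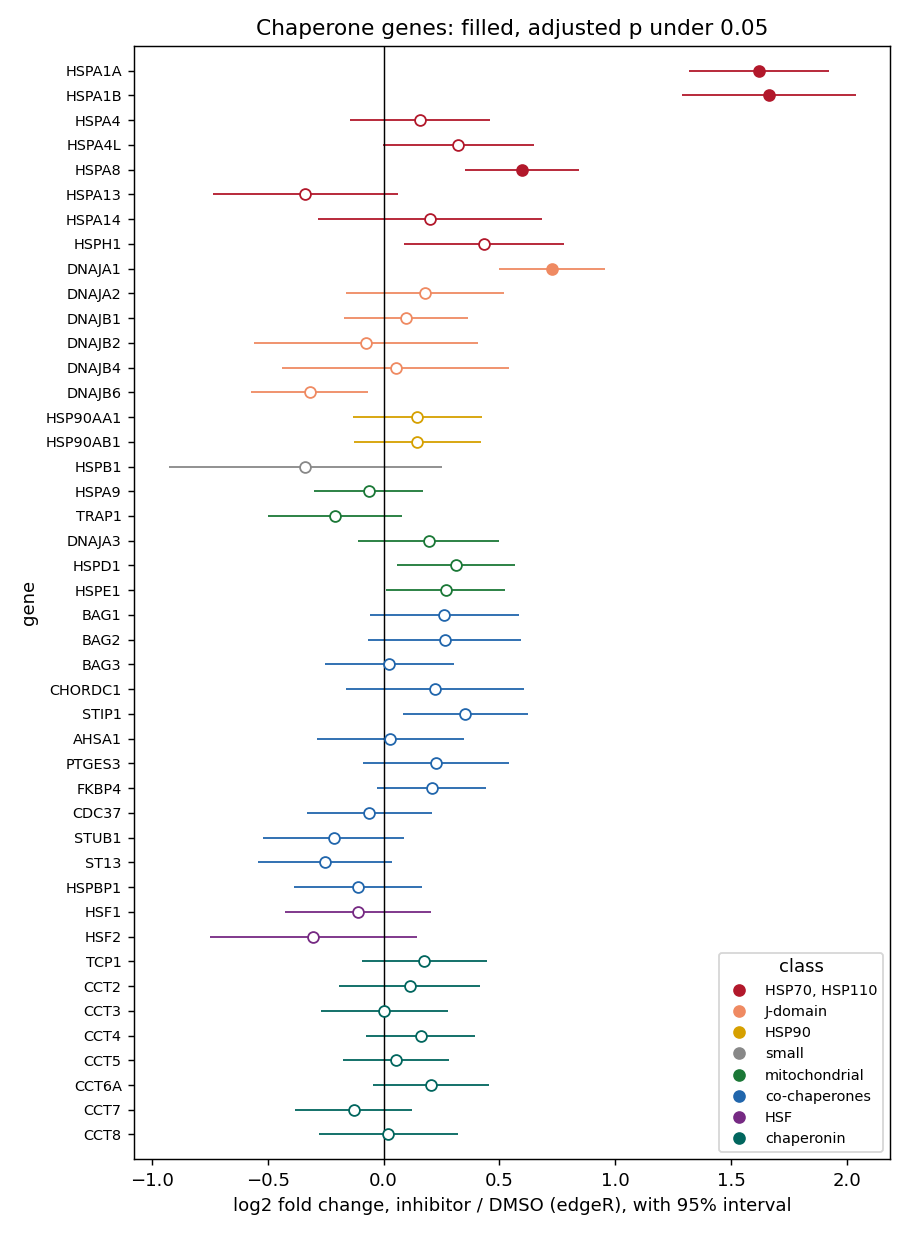
Log2 fold change of each tested chaperone gene, inhibitor over DMSO, with its 95% interval from edgeR; colours are the classes and filled circles the genes with an adjusted p under 0.05. HSPA1A and HSPA1B lie near 1.6, HSPA8 and DNAJA1 between 0.6 and 0.73, and all other genes between -0.34 and 0.43.

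None of the 5 mitochondrial chaperone genes passed by edgeR, and DESeq2 and limma-voom without library quality weights called none either. With library quality weights limma-voom called HSPD1, HSPE1 and DNAJA3 higher and TRAP1 lower, in a fit that called many more genes of all kinds. In edgeR an unadjusted p under 0.05 was reached by 2 of the 5 genes, against 19.5% of all tested genes. These were HSPD1 (HSP60) and HSPE1 (HSP10), the chaperonin and its lid, which share a bidirectional promoter. HSPD1 had 1187, 1171 and 1356 CPM in the inhibitor libraries and 898, 967 and 1124 CPM in the DMSO libraries. HSPE1 had 208, 191 and 173 CPM in the inhibitor libraries and 167, 159 and 150.5 CPM in the DMSO libraries. For both genes every inhibitor value was above every DMSO value, at log2 fold changes of 0.31 (SE 0.119, adjusted p = 0.159) and 0.27 (SE 0.119, adjusted p = 0.234). Without DMSO 3, HSPD1 rose by 0.39 (adjusted p = 0.00345), while HSPE1 was at 0.22 (adjusted p = 0.130). The ratio of HSPD1 to HSPE1 was 5.70, 6.13 and 7.82 in the inhibitor libraries and 5.39, 6.08 and 7.47 in the DMSO libraries, with groups that overlapped (exact permutation test, two-sided p = 0.70).

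HSPA9, the mitochondrial HSP70 that pulls imported proteins through the inner membrane, had 457, 485 and 429 CPM in the inhibitor libraries and 479, 453 and 502 CPM in the DMSO libraries. The log2 fold change was -0.06 with a 95% interval of -0.30 to 0.17. TRAP1, the mitochondrial HSP90, had 113, 107 and 101 CPM in the inhibitor libraries and 139, 130.5 and 103 CPM in the DMSO libraries, where DMSO 3 lay among the inhibitor values. It was at -0.21 (adjusted p = 0.416) with all libraries and fell by 0.34 without DMSO 3 (adjusted p = 0.0140). DNAJA3, the J-domain partner of HSPA9, was at 0.19 (adjusted p = 0.489), and without DMSO 3 rose by 0.34 (adjusted p = 0.0210).

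None of the 12 tested co-chaperone genes passed by edgeR, with 1 at an unadjusted p under 0.05, and none was called by DESeq2 or by limma-voom without library quality weights. That one was STIP1, the adaptor HOP that links HSP70 to HSP90, with 723, 682 and 635 CPM in the inhibitor libraries and 471, 504 and 623 CPM in the DMSO libraries. Its groups did not overlap, although DMSO 3 came close to inhibitor 3, and the log2 fold change was 0.35 (SE 0.126, adjusted p = 0.136). BAG3, the heat-inducible exchange factor that links HSP70 to autophagy, had 344, 336 and 382 CPM in the inhibitor libraries and 407, 333 and 303 CPM in the DMSO libraries. It was at 0.03 (95% interval -0.25 to 0.30, adjusted p = 0.943), so that its interval does not reach the value of DNAJA1. FKBP4, an HSP90-binding immunophilin gene, did not overlap between groups, at 330.1, 324 and 345 CPM in the inhibitor libraries and 302, 293 and 270.4 CPM in the DMSO libraries, and was at 0.21 (adjusted p = 0.318).

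ST13, the HSP70-interacting protein HIP that slows nucleotide release, had the lowest fold change of the class, with 93.2, 87.4 and 72.7 CPM in the inhibitor libraries and 108, 104 and 89.0 CPM in the DMSO libraries. The groups overlapped, and the log2 fold change was -0.25 (SE 0.135, adjusted p = 0.321). The other members of the class, BAG1, BAG2, CHORDC1, AHSA1, PTGES3, CDC37, STUB1 and HSPBP1, lay between -0.21 for STUB1, the ubiquitin ligase CHIP, and 0.26 for BAG2 and BAG1. BAG5 had 9, 10 and 3 counts in the inhibitor libraries and 2, 7 and 1 in the DMSO libraries, too few to test. Without DMSO 3, STIP1, PTGES3 (the HSP90 co-chaperone p23) and CHORDC1 rose, by 0.47, 0.41 and 0.44, while STUB1 and ST13 fell, by 0.34 and 0.35. With library quality weights limma-voom called STIP1, PTGES3 and CHORDC1 higher and ST13 lower.

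Neither heat shock factor gene passed. HSF1 had 86.5, 95.4 and 92.9 CPM in the inhibitor libraries and 118, 100.1 and 78.1 CPM in the DMSO libraries, and was at -0.11 (95% interval -0.42 to 0.21, adjusted p = 0.744). HSF2 had 15.3, 14.4 and 15.1 CPM in the inhibitor libraries and 14.5, 14.99 and 26.3 CPM in the DMSO libraries. For HSF2 only DMSO 3 differed from the other libraries, and the log2 fold change of -0.30 (adjusted p = 0.457) was 0.00 without it (0.00156). HSF1 is controlled mainly through its protein, which these counts do not measure.

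The 8 genes of the cytosolic chaperonin TRiC, which folds actin and tubulin, lay close to 0, from -0.13 for CCT7 to 0.21 for CCT6A, with a median of 0.08. None passed by edgeR, DESeq2 or limma-voom, none had an unadjusted p under 0.05, and none was called without DMSO 3. TCP1 had 441, 425 and 407 CPM in the inhibitor libraries and 394, 420 and 313 CPM in the DMSO libraries (log2 fold change 0.18, 95% interval -0.09 to 0.45, the lower bound being -0.0948). CCT6A had 278, 256 and 245 CPM in the inhibitor libraries and 206, 228 and 242 CPM in the DMSO libraries, without overlap (adjusted p = 0.354), and CCT7 had 209.9, 179 and 182 CPM in the inhibitor libraries and 219, 207 and 198 CPM in the DMSO libraries, with overlap (adjusted p = 0.602). The upper bounds of the 8 intervals stood between 0.12 for CCT7 and 0.46 for CCT6A.

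The number of calls depended on DMSO 3. Without that library 13 of the 44 chaperone genes rose (29.5%) and 4 fell (9.09%), where 21.9% of all tested genes were called in either direction, 10.8% higher and 11.1% lower. The risers then included 6 of the 8 HSP70 and HSP110 genes, 2 J-domain, 2 mitochondrial and 3 co-chaperone genes, and the genes that fell were DNAJB6, TRAP1, STUB1 and ST13. DMSO 3 was the highest DMSO library for 19 of the 44 genes, the lowest for 21 and between the others for 4. Its distance from the mean of DMSO 1 and DMSO 2 ran from -0.97 on the log2 scale for HSPB1 to 1.00 for HSPA14.

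Transcript GC content moved with that distance. Across the 44 genes, which share the same libraries, the distance of DMSO 3 had a Spearman correlation of -0.624 and a Pearson correlation of -0.625 with GC content (37.0% to 65.4%). HSF1 at 64.2% GC and HSPB1 at 64.3% were low in DMSO 3, and HSF2 at 40.9% and DNAJB4 at 40.9% were high. Some genes went against the trend. BAG2, with the lowest GC content (37.0%), was at -0.39 and CCT2 (43.0%) at -0.47, while DNAJA3 (54.0%) was at 0.43. The trend was not limited to chaperone genes. Over 9215 genes, deviations in DMSO 3 had a Spearman correlation of -0.491 with GC content. In DMSO 1 it was 0.535, and in the other libraries between -0.118 and 0.156. HSPA1A and HSPA1B are at 59.2% and 58.7% GC, HSPA8 at 46.8% and DNAJA1 at 41.7%. With each library's GC trend removed, the same 4 genes were called higher and none lower, and HSPA1A plus HSPA1B stood at a log2 fold change of 1.68.

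**Figure D5:**
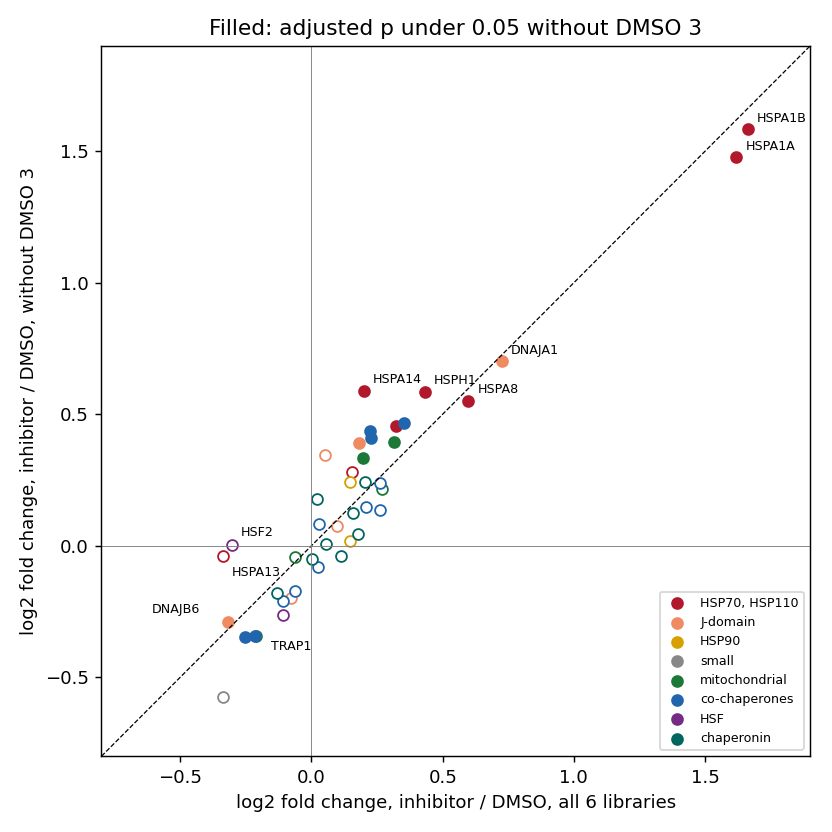
Log2 fold change of each tested chaperone gene, inhibitor over DMSO, with all 6 libraries (horizontal) and without DMSO 3 (vertical); colours are the classes, filled circles have an adjusted p under 0.05 without DMSO 3 and the dashed line marks equal values. HSPA1A, HSPA1B, HSPA8 and DNAJA1 lie near the line, while HSPA14, HSF2 and HSPA13 lie well above it.

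A list of 48 other chaperone and heat shock genes, picked by name, was also examined and does not cover the whole pathway. Of these 46 were in the files and 38 were tested. By edgeR none was called, with 10 at an unadjusted p under 0.05 (26.3%, against 19.5% of all tested genes). DESeq2 called 3, and limma-voom without library quality weights 1. Of all 11216 genes DESeq2 called 288 higher and 303 lower, and that limma-voom fit 228 and 216. Over the 38 genes the median log2 fold change was 0.03. With DMSO 3 left out 6 of them were higher (15.8%) and 7 lower (18.4%), against 10.8% and 11.1% of all tested genes. The inhibitor and DMSO values did not overlap for 10 of the 38 (26.3%, against 25.5% of all tested genes). HSPA6, an HSP70 gene expressed almost only after severe stress, had 3, 0 and 1 counts in the inhibitor libraries and 0, 1 and 0 in the DMSO libraries, and the small heat shock protein gene CRYAB had 2 counts in each inhibitor library and 6, 2 and 0 in the DMSO libraries. Neither was tested, and no difference was detectable at these counts.

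The 3 genes nearest to the threshold in that list, chosen after their values were seen, were PFDN2, GRPEL1 and PFDN1. PFDN2, a subunit of prefoldin, which hands new actin and tubulin chains to TRiC, had 274, 233 and 227 CPM in the inhibitor libraries and 321, 317 and 385 CPM in the DMSO libraries (log2 fold change -0.48, SE 0.126, adjusted p = 0.0505). PFDN1, another prefoldin subunit gene, had 61.3, 73.3 and 51.7 CPM in the inhibitor libraries and 35.1, 45.1 and 46.9 CPM in the DMSO libraries (0.55, SE 0.157, adjusted p = 0.0664). The values of these subunits thus lay in opposite directions, without overlap between groups for either. GRPEL1, the nucleotide exchange factor of HSPA9, had 81.8, 99.7 and 108 CPM in the inhibitor libraries and 66.6, 66.9 and 71.4 CPM in the DMSO libraries (0.50, SE 0.132, adjusted p = 0.0509). Without DMSO 3 all 3 were called, with an adjusted p = 0.00440 for PFDN2, 0.000839 for PFDN1 and 0.00138 for GRPEL1.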

How the data were processed

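Parts of each targeted transcript were amplified by multiplex PCR (Ion AmpliSeq panel, per the labels' protocols) and sequenced on the Ion Torrent platform, per the series' design text. The values the authors deposited are raw, unnormalized read counts, 1 for each gene symbol. Per the submitters' processing notes, HTSeq, DESeq2 1.20.0 and hg19 were used, with no roles named; for the aligner, "not given in the sources used here" applies. No molecular identifiers are named, so PCR copies could not be told from separate molecules. Intervals rest on the spread between these libraries, which includes any differences in amplification between them. In edgeR the variance of each gene is drawn towards a trend over all tested genes. Its intervals and SE thus do not measure the gene's own spread alone. The p-values set the group difference against this moderated spread. The series calls the libraries biological replicates without saying how they were grown apart. Chi-square per degree of freedom between libraries of a group was 5.37 to 38.5, so none was treated as a duplicate deposit; this says nothing of how the replicates were grown.

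Counts were tested in edgeR 4.0.16 (R 4.3.3): genes were kept by filterByExpr (minimum count 10, minimum total 15), TMM scaling, quasi-likelihood test on the group, and Benjamini-Hochberg adjustment over all 11216 tested genes with a threshold of 0.05. The SE is the absolute log2 fold change over the root of its F statistic, and 95% intervals use it with the test's degrees of freedom. Ratios used exact permutation over libraries (SciPy 1.17.1). Alternatives were DESeq2 1.42.0, its size factors, limma-voom (limma 3.58.1) with and without quality weights, library totals, other filters, a replicate block, removal of each library's GC trend (local regression, span 0.5; transcripts of GENCODE 29, matched for 99.2% of tested genes and all 44 tested chaperone genes) and leaving out each library. The fits were tested on simulated counts. Promoters are RefSeq's, GRCh38.p14, and promoters of HSPA1A and HSPA1B were aligned globally (Biopython 1.88).

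The members, gene lists, tests and alternatives were chosen with earlier results of these data known. Values per library are given for genes past the threshold, for a fixed list of main members and for those with the largest and smallest fold change of each class. HSPA14 and FKBP4, outside that rule, were added after their values were seen.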

Additional observations from a re-analysis of the deposited data

How the results depend on the processing

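HSPA1A, HSPA1B and DNAJA1 were called higher under all 15 alternatives and HSPA8 under 13, the exceptions being the loss of inhibitor 1 or inhibitor 2. Their log2 fold changes ran from 1.48 to 1.70, 1.53 to 1.801, 0.67 to 0.79 and 0.52 to 0.67 in that order (HSPA1A, HSPA1B, DNAJA1, HSPA8), and that of HSPA1A plus HSPA1B from 1.49 to 1.72 with a library left out. The number of chaperone genes called was 4 higher and 0 lower in the reported fit, 14 and 2 with library quality weights, 5 and 0 with no filter on low counts, and 3 to 13 higher and 0 to 4 lower with a library left out, the largest being without DMSO 3. The other chaperone genes, 0 and 0 in the reported fit, had 2 higher and 1 lower with DESeq2 or with the GC trend removed, 2 and 0 with library totals only, 2 and 2 with no filter, 0 and 1 with DESeq2's size factors, limma-voom or a mean count of at least 50, 6 and 6 with quality weights, and 0 to 6 higher and 0 to 7 lower with a library left out.

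Over all genes, 219 were higher and 215 lower in the reported fit (50.5% higher), 336 and 163 with library totals (67.3%), 372 and 351 with the GC trend removed, 395 and 436 with no filter, 1387 and 1219 with quality weights, and 38 to 1227 higher and 61 to 1269 lower with a library left out; the lowest share of higher calls was 38.4%, without inhibitor 2. DESeq2 called 288 higher and 303 lower, and limma-voom without quality weights 228 and 216. DESeq2's size factors gave 208 and 229, and the filter on a mean count gave 189 and 210. The cause of these differences was not tested, beyond the libraries removed.

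Some log2 fold changes turned sign, none with a call; apart from HSF2, at -0.30 in the reported fit, these lay between -0.11 and 0.11 there. CCT3, at 0.0036 in the reported fit, was at -0.0070 with DESeq2's size factors, -0.0070 with a mean count of at least 50, -0.0070 with DESeq2, -0.0087 with no filter, -0.0049 with limma-voom, -0.040 with quality weights, -0.0051 with a replicate block and -0.012 with the GC trend removed. Quality weights also turned AHSA1 to -0.0073 and CCT2 to -0.011, and GC removal CCT8 to -0.024. With a library left out the ranges that crossed 0 were -0.074 to 0.12 for CCT3, -0.19 to 0.34 for DNAJB4, -0.099 to 0.14 for AHSA1, -0.24 to 0.074 for DNAJB2, -0.080 to 0.15 for BAG3, -0.11 to 0.18 for CCT8, -0.17 to 0.028 for CDC37, -0.26 to 0.028 for HSF1, -0.46 to 0.0016 for HSF2 and -0.040 to 0.21 for CCT2. The log2 ratio difference ranged from -0.27 to 0.23 for HSP90AA1 to HSP90AB1 and from -0.083 to 0.18 for HSPD1 to HSPE1, but from 0.94 to 1.14 for HSPA1A plus HSPA1B to HSPA8.

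With the replicate block 4 chaperone genes were higher and 0 lower, and 159 genes in all were higher and 168 lower; the block changed no call among the chaperone genes. Deviations of same-numbered libraries correlated at -0.041, -0.038 and -0.088, and no library correlated best with its own number. The numbers were therefore not taken to pair the libraries. The block left the 3 ratio differences as they were, each at an exact sign-flip p of 0.25 or more, the smallest it can give. Low counts limit the precision of HSPB1, DNAJB2 and BAG5.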
